A study of Mus musculus with 4 samples.

Results

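Syndecans and glypicans are the main heparan sulfate proteoglycans of the cell membrane, and 9 of their genes were examined here in 4 mouse fibroblast lines. The genes were the 4 syndecans Sdc1, Sdc2, Sdc3 and Sdc4, and the 5 glypicans Gpc1, Gpc2, Gpc3, Gpc4 and Gpc6. All probe sets that the platform annotation assigned to one of these genes alone were taken, which gave 9 of 18193 annotated genes and 23 of 45037 non-control probe sets, 13 of syndecans and 10 of glypicans. Sdc2 was picked because several of its probe sets were brighter in both melanotransferrin clones than in the controls, so its group difference is given as a description without a test. The other 8 genes were taken as its family.

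Syndecans are transmembrane proteins with a short cytoplasmic tail, and glypicans are held to the membrane by a glycosylphosphatidylinositol anchor. Both carry heparan sulfate chains, which bind growth factors, chemokines and matrix proteins and present them to signalling receptors. In fibroblasts Sdc4 is known as a partner of integrins in focal adhesions, and Sdc2 for its part in matrix assembly.

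The lines were stable transfectants of LMTK-, a thymidine kinase-deficient mouse fibroblast line, and all of them carried the expression vector pCI-neo. Vector 1 and vector 2 held the vector without insert. MTf 4 and MTf 6 were clones whose vector held the cDNA of mouse melanotransferrin, a membrane-anchored iron-binding protein, so each is a single clone. Each line was hybridised once to an Affymetrix mouse genome array, which gave 2 arrays per group, and whether the vector lines were clones is not stated in the labels. The p-values therefore measure only the spread between these arrays.

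The median signal of an array lay between 209 and 214, and 15.7% to 17.8% of the signals were under 32. Meltf, the gene of melanotransferrin, was at 265 and 274 in the vector lines and at 1519 and 1885 in the clones. Of 9 fibroblast markers 8 passed the filter on dim probe sets, and Thy1, at 94.2 to 170, did not. The summed signal of the 9 lay between 202617 and 226850 in the vector lines and between 218109 and 272017 in the clones. Markers of other cell types were mostly dim: 5 of 6 epithelial, 4 of 5 endothelial, 3 of 4 B and plasma cell and 6 of 6 neural genes were under the filter, although none was listed at 0. The B cell gene Cd79a passed, at 918 to 2375, the epithelial Krt8 at 419 to 572 and the endothelial Kdr at 172 to 358. Epcam, under the filter by its mean, was at 130.5 (vector 1), 40.1 (vector 2), 325.5 (MTf 4) and 404.7 (MTf 6). Of 5 macrophage genes 4 passed, Csf1r at 289 to 762, Lyz2 at 275 to 767, Adgre1 at 229 to 321 and Cd68 at 184 to 373, while Ptprc was at 7.30 to 88.8. In such bulk RNA, fewer cells that express a gene and less RNA per cell cannot be told apart.

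Of the 9 genes, 6 were matched to a start site in RefSeq's table of GRCm38.p6. Sdc1 and Sdc4 are shown because their probe sets differed in the order of the lines: vector 2 and MTf 4 were the 2 highest in every tested probe set of Sdc1 and in none of Sdc4. The 250 bases before each start site are printed 5′ to 3′ on the gene's strand, Sdc1 at chr12:8771146-8771395 (plus strand) and Sdc4 at chr2:164443189-164443438 (minus strand), with the GC box GGGCGG or its reverse complement CCGCCC in capitals.
Sdc1: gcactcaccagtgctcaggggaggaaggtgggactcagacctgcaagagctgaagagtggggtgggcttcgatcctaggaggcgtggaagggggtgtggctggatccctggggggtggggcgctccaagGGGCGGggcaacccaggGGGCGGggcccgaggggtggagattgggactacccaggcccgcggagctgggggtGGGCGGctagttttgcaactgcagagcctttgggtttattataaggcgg
Sdc4: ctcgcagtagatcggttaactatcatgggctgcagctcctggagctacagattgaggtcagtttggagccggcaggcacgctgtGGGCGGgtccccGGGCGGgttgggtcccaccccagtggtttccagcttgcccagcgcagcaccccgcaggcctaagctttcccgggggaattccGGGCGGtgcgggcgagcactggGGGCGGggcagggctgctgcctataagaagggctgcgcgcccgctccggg
The Sdc1 stretch held 3 GC boxes and the Sdc4 stretch 4. The box was present on either strand in all 6 matched stretches, and in 32.7% of the 32851 stretches of the same length in the table. The 6 stretches were 66% to 76.4% G or C, while the 32.7% is over stretches of any composition. A match is a description of the letters and not of a bound site.

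Sdc2 was bright in all 4 lines by 3 of its 4 probe sets, and each of these ran in the same order, from vector 1 through vector 2 and MTf 4 to MTf 6. By the brightest, 1448545_at, the signal was 2998 (vector 1), 4518 (vector 2), 5911 (MTf 4) and 7769 (MTf 6). The group means were 3758 ± 1075 (SD, n = 2) for the vector lines and 6840 ± 1313 (SD, n = 2) for the clones, a log2 difference of 0.87 or 1.83-fold. Log2 differences and folds throughout are on the scale of log2(signal + 32), which understates changes of dim probe sets. The groups did not overlap, but the step between the 2 vector lines (0.59 on the log2 scale) was larger than the step from vector 2 to MTf 4 (0.39). The step from MTf 4 to MTf 6 was also 0.39.

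Another bright probe set of Sdc2, 1417011_at, was at 2536 (vector 1), 4342 (vector 2), 6009 (MTf 4) and 8035 (MTf 6). Its log2 difference was 1.06, or 2.08-fold. The dimmest of the 3, 1417012_at, was at 1660 (vector 1), 3307 (vector 2), 4069 (MTf 4) and 6374 (MTf 6), a difference of 1.11 or 2.16-fold. Here the vector lines were 0.98 apart and vector 2 and MTf 4 only 0.30. The 3 probe sets are annotated to the same transcript record and are not independent measurements. A further one, 1431474_at, was dim and went another way, at 87.9 (vector 1), 44.4 (vector 2), 76.3 (MTf 4) and 67.4 (MTf 6).

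The Sdc2 difference varied with the array left out. By the brightest probe set it was 0.58 without vector 1 and 1.17 without vector 2, and it was 1.07 without MTf 4 and 0.68 without MTf 6. Sdc2 lies on chromosome 15, and the median of the 425 other tested genes there was -0.03 in vector 1 and -0.05 in MTf 6 against the other 3 lines. Sdc2 itself stood at -0.97 and 0.84 in these lines by its brightest probe set. Any part of the chromosome in the Sdc2 values was not tested.

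**Figure D1:**
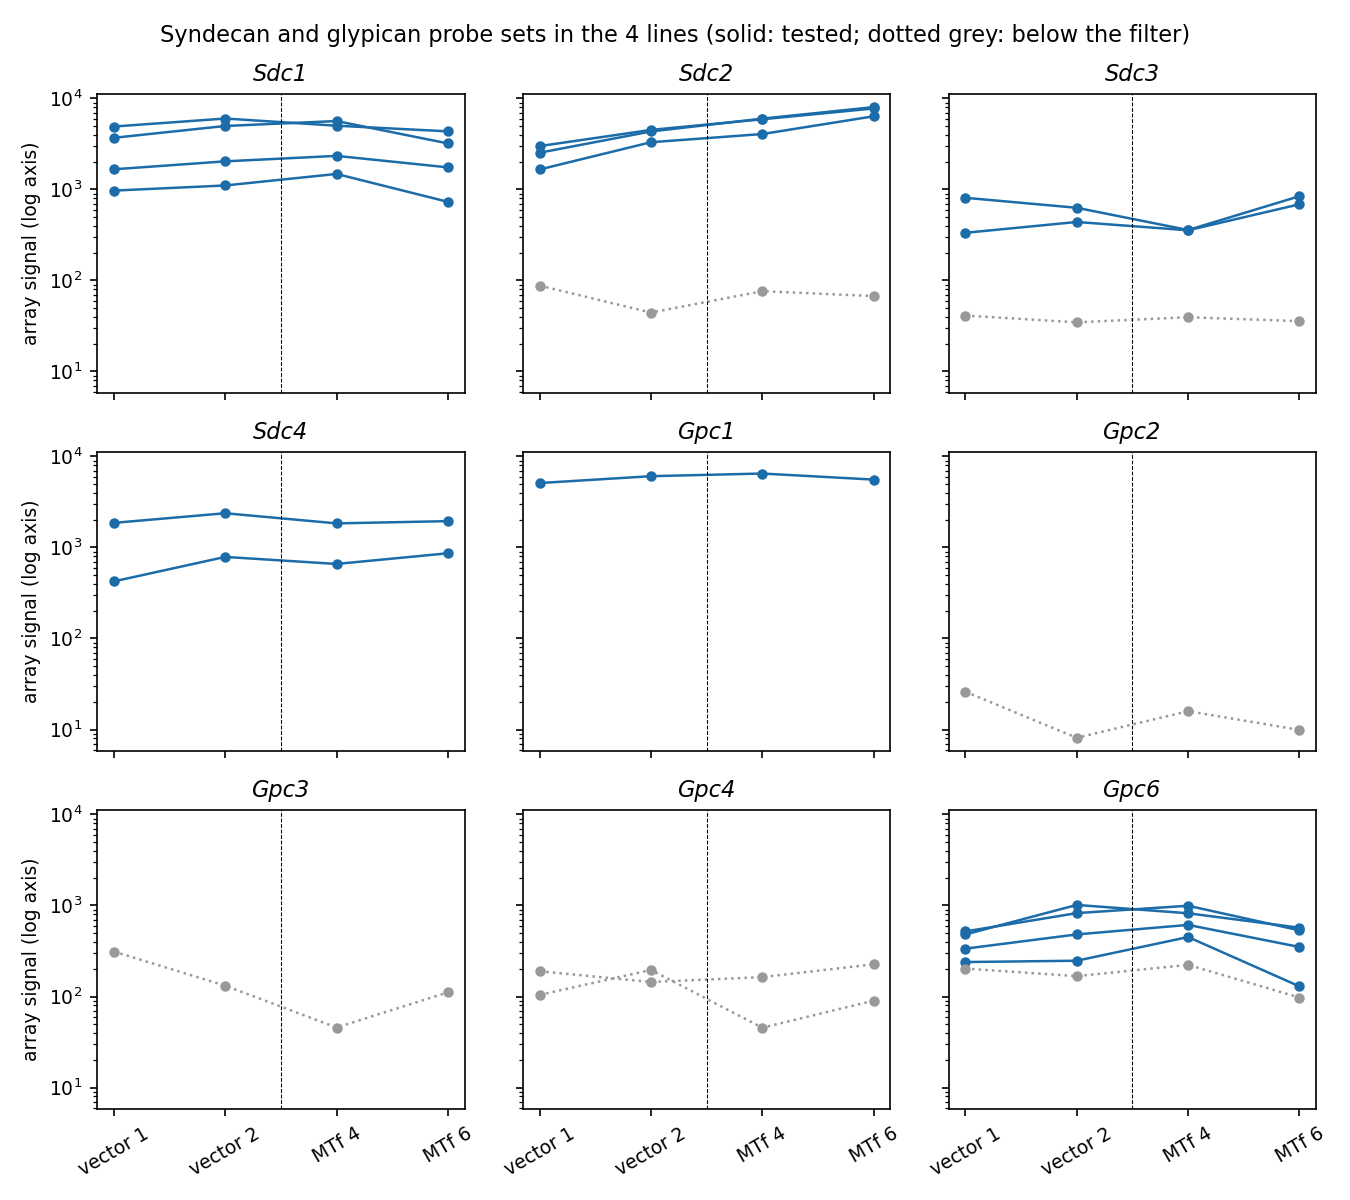
Array signal (log axis) of every probe set of the 9 genes in the 4 lines; lines join the values of a probe set and the dashed bar parts the vector lines from the clones. The 3 bright probe sets of Sdc2 climb from 1660 to 2998 in vector 1 to between 6374 and 8035 in MTf 6, while all those of Sdc1 and Gpc6 are lower in MTf 6 than in MTf 4.

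The genes whose profile lay closest to that of Sdc2 were Sema6d, Chd7, Gm17597, Pax6 and 4933432I09Rik. Likeness was the Euclidean distance over the 4 arrays between log2 deviations from the mean, which was 0.19 for Sema6d and 0.24 for 4933432I09Rik, the fifth. The other bright probe sets of Sdc2 lay at 0.22 and 0.40. Sema6d, a semaphorin, was at 303 (vector 1), 433 (vector 2), 591 (MTf 4) and 688 (MTf 6). Other tested probe sets existed for 3 of these genes, and they lay further off, at 1.38 for Sema6d, 1.33 for Pax6 and 0.47 for Chd7. That of Pax6 was at 432 (vector 1), 510 (vector 2), 407 (MTf 4) and 327 (MTf 6). That of Sema6d was at 283, 170, 137 and 276 in the same order. Neither had both clones above both vector lines, while that of Chd7 did. All 5 were chosen for their likeness from many probe sets on the same 4 arrays.

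Of the 23 probe sets, 16 of 6 genes passed the filter and entered the fit of all 22519 tested probe sets. The 3 probe sets of Sdc2 are a description without a test. None of the 13 probe sets of the other genes passed limma's threshold, each with an adjusted p = 1.00, beside 0.00444% of all tested probe sets. At an unadjusted p under 0.05 there were 0 of the 13, beside 1.90% of all. Both clones were above both vector lines in 0 of the 13, beside 12.2% of all, and below both in 0, beside 13.6% of all. The median log2 difference of the 13 was 0.019, beside -0.0068 over all tested probe sets, with 8 above 0 and 5 below.

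**Figure D2:**
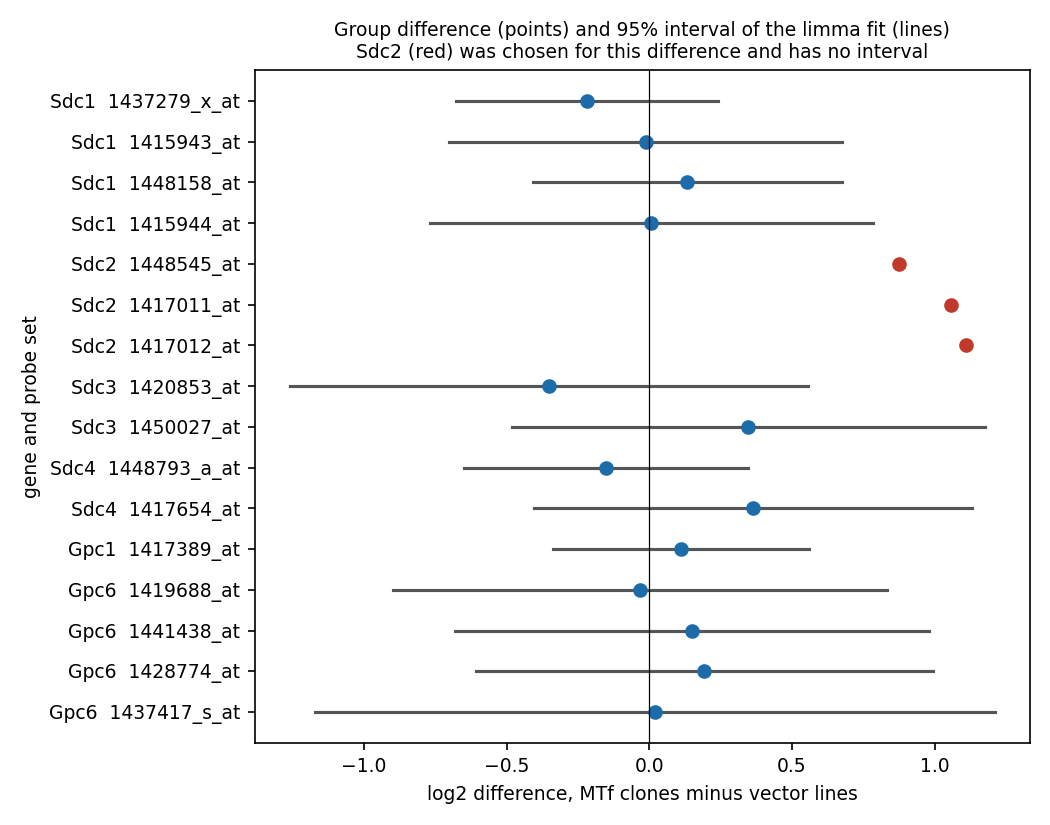
Log2 difference of the clones minus the vector lines for the 16 tested probe sets (points), with the 95% interval of the limma fit (lines) for all but Sdc2. The intervals of the 13 probe sets of Sdc1, Sdc3, Sdc4, Gpc1 and Gpc6 all include 0, and those of Sdc2 (red, 0.87 to 1.11) are not drawn because it was picked for this difference.

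Sdc1, the syndecan of epithelia and plasma cells, was bright by 4 probe sets and did not part the groups in any of them. By 1437279_x_at, the brightest, it was at 4920 (vector 1), 6022 (vector 2), 5024 (MTf 4) and 4354 (MTf 6). The log2 difference was -0.22 (95% interval -0.68 to 0.24). The suffix x marks a probe set whose probes may match other transcripts, and s one whose probes match several. By 1415943_at it was at 3700 (vector 1), 4988 (vector 2), 5652 (MTf 4) and 3209 (MTf 6). The clones here lay 0.81 apart on the log2 scale, more than the vector lines (0.43), and the group difference was -0.01 (95% interval -0.70 to 0.68). The other 2 differed by 0.13 and 0.0075 between the groups. In each of the 4 probe sets, vector 2 and MTf 4 were above vector 1 and MTf 6.

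Sdc3, the syndecan of neural tissue, was measured by 2 tested probe sets that disagreed on the groups. By 1420853_at it was at 810 (vector 1), 629 (vector 2), 359 (MTf 4) and 844 (MTf 6), a log2 difference of -0.35 (95% interval -1.26 to 0.55). By 1450027_at it was at 334 (vector 1), 440 (vector 2), 356 (MTf 4) and 688 (MTf 6), a difference of 0.35 (95% interval -0.48 to 1.17). Both had MTf 6 highest, and MTf 6 was above MTf 4 by 1.16 and 0.89 on the log2 scale. Sdc3 lies on chromosome 4, whose other 640 tested genes had a median of 0.29 in MTf 6 against the other 3 lines, and Sdc3 stood at 0.54 and 0.83. Of these chromosome 4 genes, 15.8% and 4.53% were at least as far up as the 2 probe sets, and the part of the chromosome's shift in the values was not tested. Another probe set was dim, at 34.7 to 41.2.

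**Figure D3:**
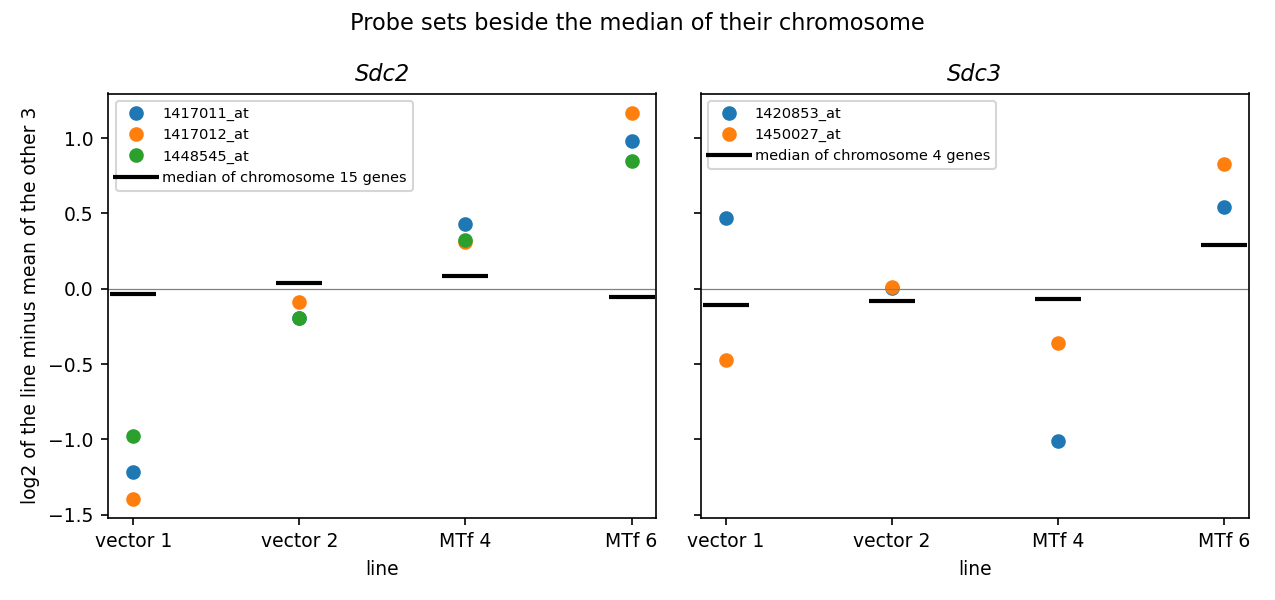
Log2 value of each line minus the mean of the other 3, for the tested probe sets of Sdc2 and Sdc3 (points) beside the median of the other tested genes of their chromosome (bars). The chromosome 15 medians lie between -0.05 and 0.08, and Sdc2 lies between -1.39 and 1.17. The chromosome 4 median is 0.29 in MTf 6, where Sdc3 is at 0.54 and 0.83.

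Sdc4, the focal adhesion syndecan, was nearly level by its brighter probe set. By 1448793_a_at it was at 1865 (vector 1), 2379 (vector 2), 1841 (MTf 4) and 1948 (MTf 6). The log2 difference was -0.15 (95% interval -0.65 to 0.34), and vector 2 stood above the other 3 lines. By 1417654_at it was at 424 (vector 1), 788 (vector 2), 659 (MTf 4) and 864 (MTf 6), and vector 1 stood below the others. That difference was 0.36 (95% interval -0.40 to 1.13), while the vector lines were 0.85 apart.

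Gpc1, a glypican of many tissues, was bright and the most even of the tested probe sets. It was at 5107 (vector 1), 6076 (vector 2), 6498 (MTf 4) and 5572 (MTf 6), so that the 4 lines lay within 0.35 on the log2 scale. The difference between the groups was 0.11 (95% interval -0.34 to 0.56).

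Gpc6 had 5 probe sets, of which 4 were tested, and its clones differed more than its groups. By 1419688_at it was at 481 (vector 1), 1015 (vector 2), 822 (MTf 4) and 570 (MTf 6). The vector lines were 1.03 apart, and the log2 difference of the groups was -0.03 (95% interval -0.90 to 0.83). By 1441438_at it was at 519 (vector 1), 825 (vector 2), 994 (MTf 4) and 533 (MTf 6), with the clones 0.86 apart. By 1437417_s_at the vector lines were alike, at 239 and 247, and the clones were at 450 in MTf 4 and 129 in MTf 6, or 1.58 apart. The group difference was 0.02 there and 0.15 and 0.19 by the remaining 2 tested probe sets. In all 4, vector 2 and MTf 4 were above vector 1 and MTf 6. The dim probe set, 1419689_at, was at 203 (vector 1), 168 (vector 2), 223 (MTf 4) and 97.5 (MTf 6). It did not have this order, because vector 1 was above vector 2.

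Gpc2, Gpc3 and Gpc4 were below the filter by all their probe sets and were not tested. Gpc3, a glypican known for its role in body growth, was at 312 (vector 1), 132 (vector 2), 45.6 (MTf 4) and 111 (MTf 6). Both clones were thus below both vector lines, with MTf 6 close under vector 2 and vector 1 far above the rest. Gpc4, its direct neighbour among the protein-coding genes of the X chromosome, was at 190, 144, 163 and 226 by 1421088_at in the order vector 1, vector 2, MTf 4 and MTf 6. By 1436514_at it was at 104, 196, 45.4 and 90.0 in the same order, so 1 of its 2 probe sets had both clones lower and the other did not. Gpc2, a glypican of the developing nervous system, was at 8.10 to 26.0, which is under the offset of 32 in every line.

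Across the tested members, single lines differed within the groups as well as between them. Outside Sdc2, at least 1 pair of lines was 2-fold apart or more in 3 of the 13 tested probe sets, against 11.5% of all tested probe sets. The median range over the 4 lines was 0.90 on the log2 scale for the 13 and 0.51 for all tested probe sets. The clones were at least 2-fold apart in 2 of the 13, 1 of Sdc3 and 1 of Gpc6, against 4.77% of all. With 1 array per line these differences have no replicate check.

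The order of the lines was shared by 3 genes. Vector 2 and MTf 4 were both above vector 1 and MTf 6 in 9 of the 16 probe sets, all of Sdc1, Gpc1 and Gpc6, against 27.0% of all tested probe sets. Probe sets of a gene share its transcripts, so the 9 stand for 3 genes. The opposite order was found in 1, of Sdc3, against 21.3% of all. The 3 probe sets of Sdc2 could show neither, because Sdc2 was picked for both clones above both vector lines. The order shared by the 3 genes was noticed after the values were seen and is given without a test. Among the fibroblast markers 4 of the 8 tested had this order too. The summed signal of all 9 markers, Thy1 included, is weighted to bright genes such as Vim (74441 to 94073). It was 226850 in vector 2 and 272017 in MTf 4 against 202617 in vector 1 and 218109 in MTf 6. The part of this in the Sdc1, Gpc1 and Gpc6 values was not tested.

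**Figure D4:**
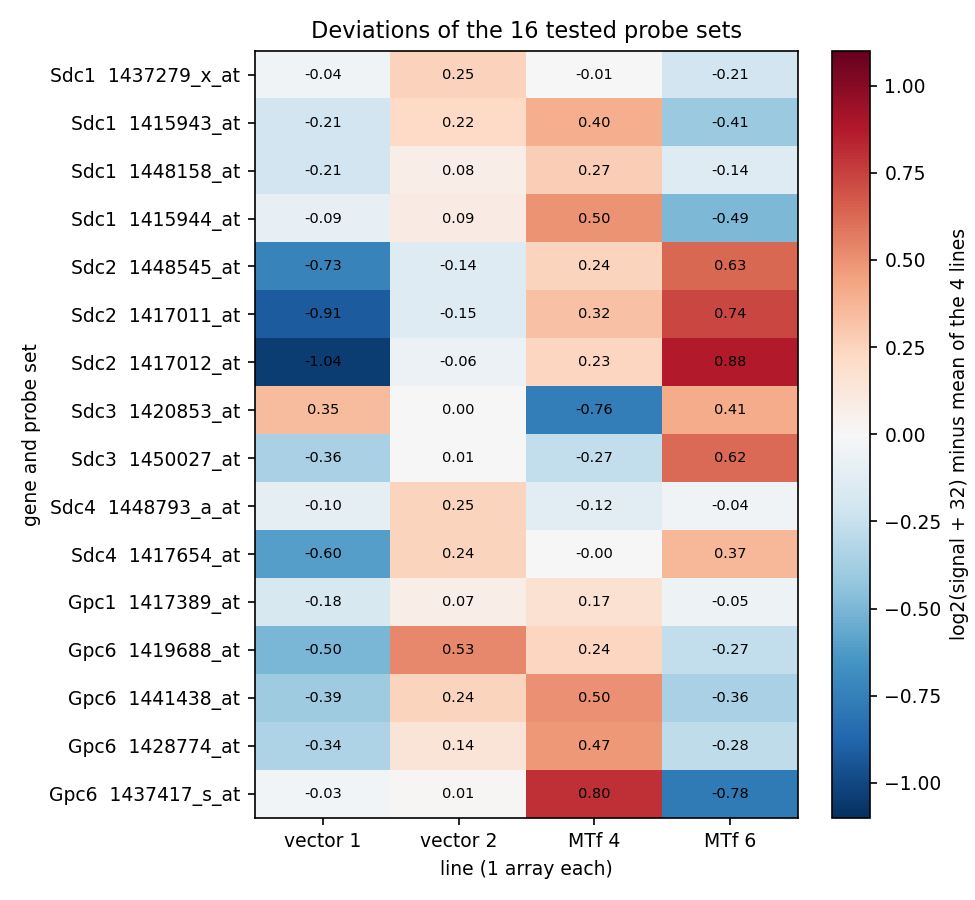
Deviation of log2(signal + 32) from the mean of the 4 lines for the 16 tested probe sets, 1 array per line (red higher, blue lower). Sdc2 goes from blue in vector 1 to red in MTf 6, and Sdc1, Gpc1 and Gpc6 are higher in vector 2 and MTf 4 than in vector 1 and MTf 6.

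Other genes of the heparan sulfate pathway were followed in 8 lists with 109 genes, each by its tested probe set with the highest mean. Of 66 tested genes 0 passed limma's threshold in either direction, each with an adjusted p = 1.00, beside 0.00444% of all tested probe sets. At an unadjusted p under 0.05 in limma there were 2 of the 66, beside 1.90% of all. Of the 66, 29 were higher and 37 lower in the clones (median log2 difference -0.04), beside 48.7% and 51.3% of all tested probe sets. The following are values of genes with the smallest unadjusted p of each list.

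In the synthesis of the chains, 4 of 10 tested genes had a mean difference above 0 and 6 below, with a median of -0.03. B4galt7, which adds the first galactose of the linker between chain and core protein, was at 586 (vector 1), 518 (vector 2), 326 (MTf 4) and 307 (MTf 6). Its log2 difference was -0.74 (SE 0.26), but its other tested probe set gave 0.32. Ugdh, which makes UDP-glucuronate for the chains, differed by -0.22, and Extl2 by 0.16, but by -0.05 by its other tested probe set. Among the enzymes of sulfation and epimerization, 6 of 10 tested genes were higher, with a median of 0.02. Hs3st2, a 3-O-sulfotransferase, was at 399 (vector 1), 484 (vector 2), 302 (MTf 4) and 201 (MTf 6), a difference of -0.76 (SE 0.32), and -0.49 by its other tested probe set. Slc35b2, which carries the sulfate donor into the Golgi, differed by -0.17 and the sulfotransferase Ndst2 by 0.17.

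Of the genes of chondroitin sulfate, the other chain that syndecans can carry, 3 of 9 tested were higher and 6 lower, and the median was -0.14. Chst12, a sulfotransferase, differed by -0.64 (SE 0.34), Csgalnact2 by -0.37 and Chpf by -0.22. Among proteases and other genes of shedding, 2 of 6 tested were higher, with a median of -0.06. The gelatinase Mmp2 was at 1777 and 1811 in the vector lines and 2267 and 2053 in the clones, a difference of 0.26, but of -0.31 by its other tested probe set. The sheddase Adam10 differed by 0.10, and by 0.11 and -0.03 by its other tested probe sets, and Mmp9 by -0.20.

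Of the partners of the syndecan tail, 5 of 9 tested genes had a mean difference above 0 and 4 below, and the median was 0.01. The kinase Src differed by 0.13 by its brighter probe set. By the other it was at 313 (vector 1), 48.5 (vector 2), 543 (MTf 4) and 395 (MTf 6), a difference of 1.57 (SE 0.63). Ezr, the membrane linker ezrin, differed by -0.16 and the actin crosslinker Actn1 by 0.10, but by -0.28 and -0.06 by its other tested probe sets. Of ligands and receptors that depend on heparan sulfate, 2 of 10 tested were higher and 8 lower, and the median was -0.06. The receptor Fgfr3 was at 449 and 414 in the vector lines and 304 and 250 in the clones, a difference of -0.59 (SE 0.28). The heparin-binding growth factor Mdk differed by -0.20, and the ligand Shh by 0.27.

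Among other heparan sulfate proteoglycans, 5 of 5 tested genes were higher in the mean of the clones, with a median of 0.07, and in none did the clones part from both vector lines. Agrn, the basement membrane proteoglycan agrin, was at 50.0 (vector 1), 512 (vector 2), 960 (MTf 4) and 458 (MTf 6). Its log2 difference of 1.72 (SE 0.80) thus came with 1 low vector line, and MTf 6 lay below vector 2. The coreceptor Tgfbr3 differed by 0.15 and Cd44 by 0.05. Gpc5, which was not among the members, was dim, at 38.2 in vector 2 and lower elsewhere.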

How the data were processed

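The authors deposited 1 intensity value per probe set and array on a linear scale; the submitters' processing notes name GCOS 1.3. Its settings were not given in the sources used, and no detection call entered the work. The 4 arrays had trimmed mean signals of about 1000 and were used as deposited. Of 45037 non-control probe sets, 34945 had 1 gene in the platform annotation, 932 several and 9160 none here.

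Signals were converted to log2(signal + 32). Probe sets with a mean under the median, a signal of 196, were left out, and 22519 were tested with limma 3.58.1 in R 4.3.3 (lmFit, eBayes with trend) for MTf minus vector. P-values were adjusted by Benjamini-Hochberg, with a threshold of 0.05. With 2 arrays per group the smallest exact two-sided p is 0.333, so the number of arrays limits the precision. On data simulated for this comparison (22519 probe sets, 200 changed) the fit recovered 5.75% of 2-fold, 67.7% of 4-fold and 89.7% of 8-fold changes, and 5.78% of calls were false. The simulated errors were independent between probe sets.

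Members and gene lists were chosen with earlier results of these data known. The named genes were all members, Meltf, up to 3 genes per list with the smallest p and the 5 genes most like Sdc2; Gpc5, Src's dimmer probe set and single cell type markers are named besides. Alternatives covered the offset, the filter, the normalization, the variance prior, the choice of probe set and leaving out each array. Of 45101 values, 37 were equal between the vector lines and 44 between the clones.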

Additional observations from a re-analysis of the deposited data

Results flagged for a closer look

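Probe set 1435606_at, which the annotation assigns to both Gal3st4 and Gpc2, was outside the members because it names 2 genes. It was listed here because both clones were above both vector lines, the lower clone 1.17-fold above the higher vector line. It read 142 (vector 1), 9.10 (vector 2), 221 (MTf 4) and 166 (MTf 6), so the vector lines differed from each other far more than vector 1 differed from MTf 6. It cannot be assigned to either gene.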

How the results depend on the processing

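No probe set of a member other than Sdc2 was called under any of the alternatives run. Over all probe sets the 1 call became 0 without the filter, 0 without the trend and 0 when the variance was not moderated. With 1 array left out there were 2 to 21 calls, in fits where the lone array of a group is assumed to vary like the other group; there were 2 without vector 1, 3 without vector 2, 7 without MTf 6 and 21 without MTf 4. The Sdc2 difference lay between 0.58 and 1.17 over the settings. Its sign could not turn with 1 array left out, because Sdc2 was picked for both clones above both vector lines. Some differences turned sign with 1 array left out: Gpc1 ranged from -0.014 (without vector 1) to 0.24, Gpc6 from -0.55 to 0.48 (without vector 2; 0.22 without MTf 6), Sdc3 from -0.93 to 0.23 (without MTf 4) and Sdc4 from -0.32 to 0.021 (without vector 2). By the median over all probe sets of the gene, Gpc6 was at 0.019 and Sdc4 at 0.11. Their causes were not tested beyond the array or probe sets left out. The number of member probe sets with lines at least 2-fold apart, Sdc2 included, was 4 to 9 over the offsets, filters and normalizations. It was 6 of 16 in the main fit, beside 11.5% of all tested probe sets, and 3 of 13 without Sdc2. No paired analysis was possible because the groups share no replicate number. Signals near or under the offset of 32, such as those of Gpc2, give no usable fold.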

Other observations

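Genes that break down heparan sulfate in the lysosome followed the line order of Sdc1, Gpc1 and Gpc6. In 7 of 7 tested genes of that list, vector 2 and MTf 4 were both above vector 1 and MTf 6. The order was found in 27.0% of all tested probe sets and in 29 of the 66 tested pathway genes, these 7 included. Among the other lists it ran from 2 of 10 tested ligands and receptors to 4 of 5 tested other heparan sulfate proteoglycans. The breakdown list was singled out after the order was seen. Naglu, an N-acetylglucosaminidase, was at 1465 (vector 1), 2268 (vector 2), 1954 (MTf 4) and 1377 (MTf 6). Gusb, the beta-glucuronidase, was at 3060, 4628, 3559 and 3458 in the order vector 1, vector 2, MTf 4 and MTf 6. In the mean of the clones 2 of the 7 were higher and 5 lower (median -0.10 on the log2 scale), and Idua, Hgsnat and Naglu differed by 0.16, -0.13 and -0.15. The other tested probe set of Idua gave -0.16. Col18a1, the proteoglycan core of collagen XVIII, had the same order, at 5334 (vector 1), 6346 (vector 2), 9418 (MTf 4) and 3969 (MTf 6). Naglu aside, the genes whose signals are given per line here were picked after their values were seen, and the order was not tested.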
